A study of Homo sapiens with 22 samples.

Results

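Acetylation and trimethylation of the same histone residue, lysine 27 of histone H3, were compared in A673, an established Ewing sarcoma cell line. The libraries were CUT&RUN, in which an antibody directs micrococcal nuclease to chromatin and the released fragments are sequenced. The 4 libraries described here were 2 with an antibody against H3K27ac, used at 1:50, and 2 with an antibody against H3K27me3, used at 1:100. They are 4 of the 22 libraries of the series, of which 18 have a peak list. All 4 came from A673 cells labelled shNS, grown in RPMI medium with serum, and the labels do not say what shNS denotes. The second line, CHLA10, also Ewing sarcoma and labelled shNS, has 2 libraries of each of these marks and served for comparison. A673 is 1 cell line, and nothing states that its replicates came from separate cultures. Of 10 Ewing sarcoma markers, 10 had H3K4me3 at a gene end in both A673 replicates, against 0 of 6 epithelial markers and 1 of 7 endothelial and haematopoietic markers (KDR). H3K27ac did not show the line in this way, with a site of both replicates at 0 of the 10 Ewing sarcoma markers and a peak of either replicate at 3 (JAK1, SOX2 and LIPI), against 1 of 6 epithelial and 2 of 7 endothelial and haematopoietic markers. A shared H3K27me3 domain was at 1 of the 10 (SOX2). H3K4me3 of both replicates was common at gene ends, at 11184 of 16551 protein-coding genes without a shared domain and 1223 of 2575 with one. H3K27ac peaks of replicates 1 and 2 were at 3345 and 3655 of all 19126 protein-coding genes, and sites of both at 6.91%. A shared domain was at 13.5%.

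A lysine can carry acetyl or methyl groups but not both at once, so one H3 tail shows either mark. H3K27ac is laid down by the acetyltransferases CBP and p300 at active promoters and enhancers. H3K27me3 is laid down by Polycomb repressive complex 2 over silenced developmental genes, often in broad domains with sharp edges. A peak of each mark at the same place in a cell population can come from different cells, alleles or nucleosomes, and peak lists do not separate these.

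The deposited lists held 39701 and 46412 H3K27ac peaks on chromosomes 1 to 22, with median lengths of 453 and 313 bp, and 27788 and 31621 H3K27me3 peaks, with median lengths of 3681 and 4341 bp. Peak height is given below as the authors' fold enrichment and −log10 q, a measure of how far a peak stood above its local background. The number of reads behind each peak is unknown. Of the H3K27ac peaks, 23.5% and 20.6% overlapped a peak of the other A673 replicate, whereas in CHLA10 the corresponding shares were 45.2% and 72.0%. Regions formed by touching H3K27ac peaks of both replicates are called sites, and there were 9238. Regions formed by touching H3K27me3 peaks of both replicates are called shared domains. There were 18746, with a median length of 6792 bp, covering 164.7 Mb or 6.25% of the 2636 Mb in which peaks of any list were found. A site or peak was inside when it overlapped a shared domain by at least 1 bp, and in the flank when it lay within 10 kb outside a border with no H3K27me3 of either replicate on it. It was away when it lay further out. Sites on H3K27me3 of 1 replicate that was not part of a shared domain were kept apart (27 sites). A shared domain may hold stretches covered by 1 replicate only. Of the 122 inside sites, 94 overlapped an H3K27me3 peak of replicate 1 and 118 of replicate 2. Bases covered by both H3K27me3 lists met 90 sites.

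Only 3 promoters carried both marks in the window from 250 bases before to 50 after the gene start, among 15101 protein-coding genes with a RefSeq entry for it (GRCh38.p14). They are shown because they are the starts at which a site and a shared domain met within 300 bases, and CG dinucleotides are in capitals.
VSNL1, chr2:17539722-17540021, plus strand: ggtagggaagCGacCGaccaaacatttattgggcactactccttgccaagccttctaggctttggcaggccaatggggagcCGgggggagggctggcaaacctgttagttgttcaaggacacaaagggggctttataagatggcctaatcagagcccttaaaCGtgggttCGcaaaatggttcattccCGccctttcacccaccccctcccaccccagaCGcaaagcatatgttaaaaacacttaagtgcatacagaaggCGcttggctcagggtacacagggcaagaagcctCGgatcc
SLC17A7, chr19:49441478-49441777, minus strand: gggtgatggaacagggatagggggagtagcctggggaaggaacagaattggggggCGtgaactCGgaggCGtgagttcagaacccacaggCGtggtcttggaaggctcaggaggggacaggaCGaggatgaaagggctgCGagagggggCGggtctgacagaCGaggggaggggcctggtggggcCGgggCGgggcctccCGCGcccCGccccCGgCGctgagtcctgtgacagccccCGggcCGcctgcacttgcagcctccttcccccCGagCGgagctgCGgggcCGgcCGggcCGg
ZBTB45, chr19:58538862-58539161, minus strand: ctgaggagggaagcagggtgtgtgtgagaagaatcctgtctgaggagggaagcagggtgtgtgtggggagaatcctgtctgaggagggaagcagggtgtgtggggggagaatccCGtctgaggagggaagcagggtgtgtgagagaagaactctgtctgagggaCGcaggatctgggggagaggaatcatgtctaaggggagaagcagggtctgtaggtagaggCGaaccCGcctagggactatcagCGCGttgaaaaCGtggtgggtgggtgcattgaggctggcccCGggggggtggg

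VSNL1 encodes a neuronal calcium sensor, SLC17A7 the vesicular glutamate transporter VGLUT1 and ZBTB45 a zinc finger protein. The windows held 9, 23 and 8 CG dinucleotides for VSNL1, SLC17A7 and ZBTB45. A median of 19 was found over the 1472 promoters that met a shared domain, 21 over the 406 that met an H3K27ac site and 22 over all 15101. At least 1 CG was present in 98.1% of all promoter windows. Promoters in a shared domain differed by H3K4me3, with a median of 29 CG in the 624 that had it in both replicates and 7 in the 848 that did not. The VSNL1 and SLC17A7 windows had H3K4me3 and the ZBTB45 window did not.

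H3K27ac was depleted in H3K27me3 domains, and more so for the peaks that repeated. Of the H3K27ac peaks, 3.71% in replicate 1 (1471 peaks, exact 95% interval 3.52 to 3.90) and 4.51% in replicate 2 (2092 peaks, 4.32 to 4.70) lay inside shared domains. Uniform placement, the share calculated for peaks of the same lengths set anywhere on their chromosome within the 2636 Mb, was 6.79% and 6.64%. The observed share was therefore 0.61 ± 0.094 times that of uniform placement (SD, n = 2 lists). Both lists fell below it, and intervals cover counting error only.

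Sites of both replicates were rarer still, with 122 of 9238 inside (1.32%, 1.10 to 1.57) against 7.19% for uniform placement, a ratio of 0.18. Peaks that overlapped the other replicate were inside at 1.33% and 1.27%, while peaks found in 1 list alone were inside at 4.44% and 5.35%. The count of 122 rests on requiring both H3K27ac lists, because each list alone placed 1471 or 2092 peaks inside. By bases, 1.201% of the length of the sites lay in shared domains, which held 6.25% of the space. All 4 pairs of single lists gave the same picture, with 3.40% to 5.25% of H3K27ac peaks overlapping H3K27me3 and ratios of 0.54 to 0.69.

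**Figure D1:**
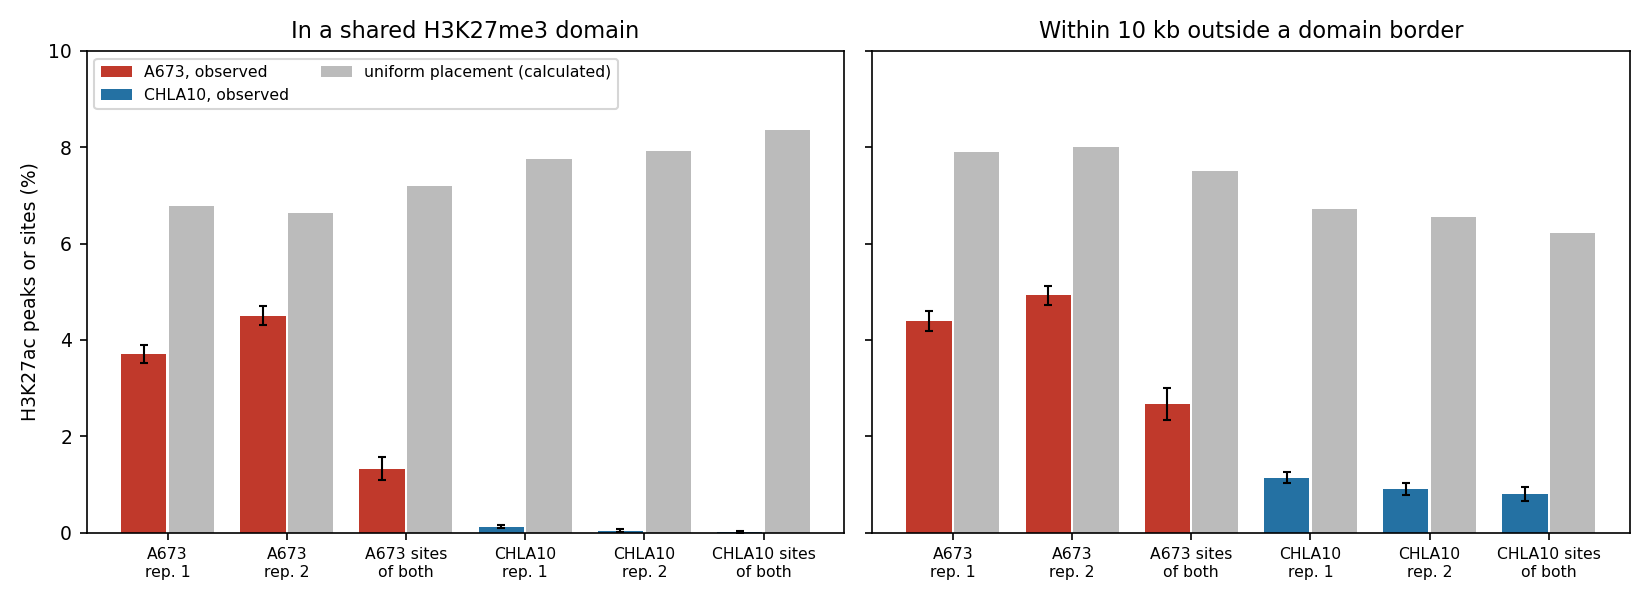
Share of H3K27ac peaks (replicates) or sites (both replicates) in shared H3K27me3 domains (left panel) and within 10 kb outside their borders (right panel), in percent, for A673 (red) and CHLA10 (blue). Grey bars are the calculated shares for uniform placement, and error bars are exact 95% binomial intervals. All observed bars lie below their grey partners, with 1.32% of A673 sites inside against 7.19% for uniform placement.

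The depletion followed peak strength. Each list was cut into 10 equal parts by −log10 q. Tied values were split by chromosome and position, and in replicate 2 the weakest part ended and the next began at the same value, 2.55. The difference between those parts is therefore not one of strength alone. In replicate 1 the weakest part was inside at 8.18% (7.35 to 9.08), against a uniform share of 6.61%, and the strongest at 0.781% (0.531 to 1.11), 0.11 times its uniform share. In replicate 2 the weakest part was inside at 6.81%, the next at 9.20% and the strongest at 0.754% (0.526 to 1.05), with ratios of 1.07, 1.38 and 0.11. The weakest A673 peaks were thus inside domains about as often as uniform placement gives, or more often, and the strongest seldom. Repeat moved with strength, since 6.30% of the weakest and 61.9% of the strongest part of replicate 1 were also in replicate 2. In the flank the ratio was 0.96 for the weakest part of replicate 1 and 0.19 for the strongest, and 0.85 and 0.24 in replicate 2. With the upper 50% of both H3K27ac lists alone, the inside ratio was 0.300 and 52 sites were inside.

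A673 H3K27ac met H3K27me3 more often than CHLA10 H3K27ac did. The A673 ratio was 0.61 ± 0.094, against 0.011 ± 0.0082 in CHLA10 (SD, n = 2 lists each), a difference of 0.60, and both A673 values lay above both CHLA10 values. The CHLA10 lists placed 49 of 38605 and 9 of 23617 peaks (0.127% and 0.0381%) inside shared CHLA10 domains. An exact permutation test of 2 against 2 libraries, two-sided, gave p = 0.33, the smallest it allows, or 0.40 adjusted over the 6 comparisons made. The weakest of the 10 parts had ratios of 1.24 and 1.07 in A673, against 0.06 and 0.02 in CHLA10, so the lines lay apart among weak peaks too. Of the sites, 122 of 9238 were inside in A673 and 2 of 16472 in CHLA10. The lower repeat of A673 H3K27ac stands beside this gap, and its part in the gap was not tested. The gap was not particular to H3K27ac, since H3K4me3 and H3K4me1 also had higher inside ratios in A673 (given below).

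**Figure D2:**
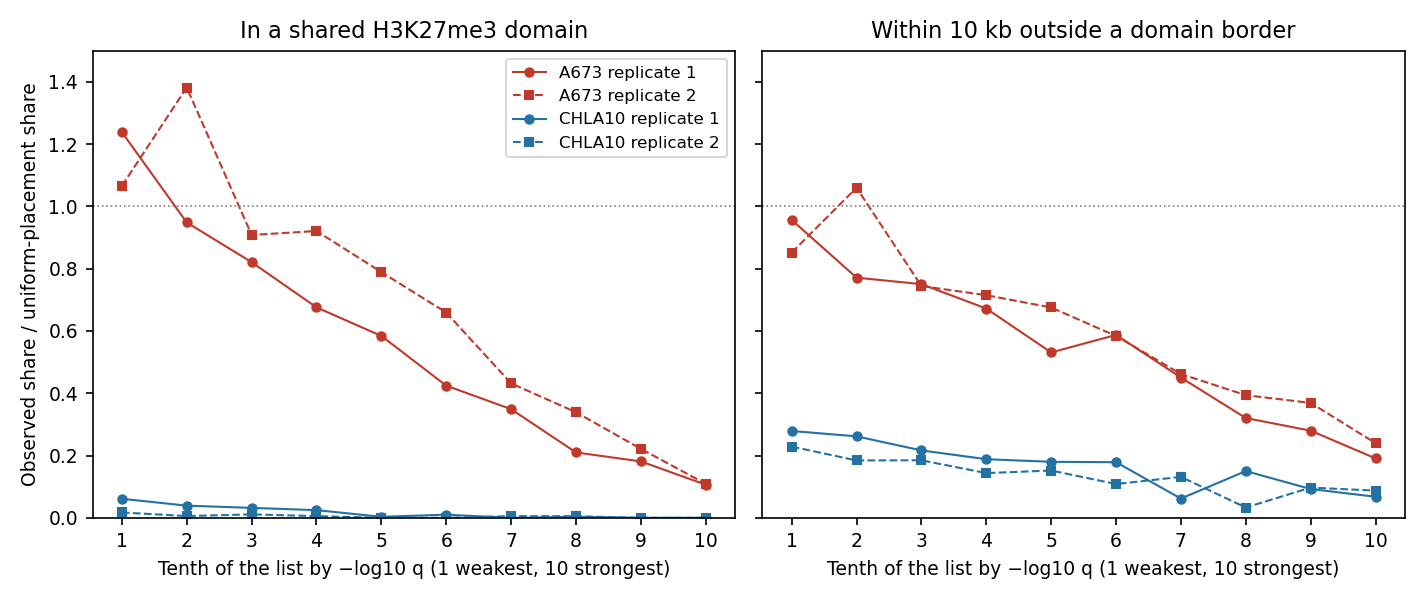
Observed share divided by the uniform-placement share for 10 equal parts of each H3K27ac list ordered by −log10 q, inside shared domains (left) and within 10 kb outside borders (right). Inside domains, A673 lists (red) start at 1.24 and 1.07 in the weakest part and end at 0.11, whereas CHLA10 lists (blue) stay at or below 0.06.

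Other A673 marks differed in how they met the same domains. H3K4me3, the mark of active and poised promoters, was inside at 10.55% and 10.25%, which is 1.39 ± 0.015 times uniform placement (n = 2), so it was over-represented where H3K27ac was under-represented. The difference in ratio between H3K27ac and H3K4me3 was -0.78, with an exact permutation p of 0.33 (adjusted 0.40). H3K4me1, the mark of primed and active enhancers, gave 0.68 ± 0.14, which overlapped the H3K27ac values (difference -0.07, exact permutation p = 0.67, adjusted 0.67). In CHLA10 and its own shared domains, the inside ratios were 0.56 ± 0.0095 for H3K4me3 and 0.13 ± 0.013 for H3K4me1 (n = 2 each). H3K4me3 was thus under-represented in CHLA10 domains. These differences between the lines were not tested.

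H3K27ac did not accumulate at domain borders. The flank held 4.40% (4.196 to 4.602) and 4.93% (4.73 to 5.13) of H3K27ac peaks, against 7.90% and 8.01% for uniform placement, a ratio of 0.59 ± 0.041 (n = 2). It held 246 of the 9238 sites (2.66%, 2.34 to 3.01), against 7.51%, a ratio of 0.35. The list ratio in A673 was above that in CHLA10, 0.15 ± 0.023, by 0.43 (exact permutation p = 0.33, adjusted 0.40).

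Counted by midpoint, sites stood at 0.692 per Mb inside domains and 0.352 per Mb in the first kb outside (12 sites in 34.1 Mb). They stood at 1.17 per Mb from 1 to 2 kb, 1.64 from 7.5 to 10 kb, 2.17 from 20 to 30 kb, 3.73 from 50 to 100 kb and 5.30 from 200 to 500 kb. The level at 7.5 to 10 kb was thus still 0.31 times that at 200 to 500 kb. The single lists had the same shape, with 4.11 and 6.36 peaks per Mb in the first kb against 20.5 and 22.8 per Mb at 200 to 500 kb. Their levels inside domains, 8.73 and 12.4 per Mb, were above those in the first kb outside. Zones go by midpoint, so a peak whose midpoint lies close outside a border may still overlap the domain.

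Gene density varied less than H3K27ac across the same zones. Boundaries of protein-coding genes stood at 17.4 per Mb inside domains, 13.1 in the first kb outside, 11.3 at 7.5 to 10 kb and 16.1 at 200 to 500 kb. Per 100 gene boundaries there were 3.97 sites inside, 2.69 in the first kb, 14.5 at 7.5 to 10 kb and 32.9 at 200 to 500 kb. The domains were therefore as rich in gene ends as distant chromatin, and poorer in H3K27ac sites per gene end.

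**Figure D3:**
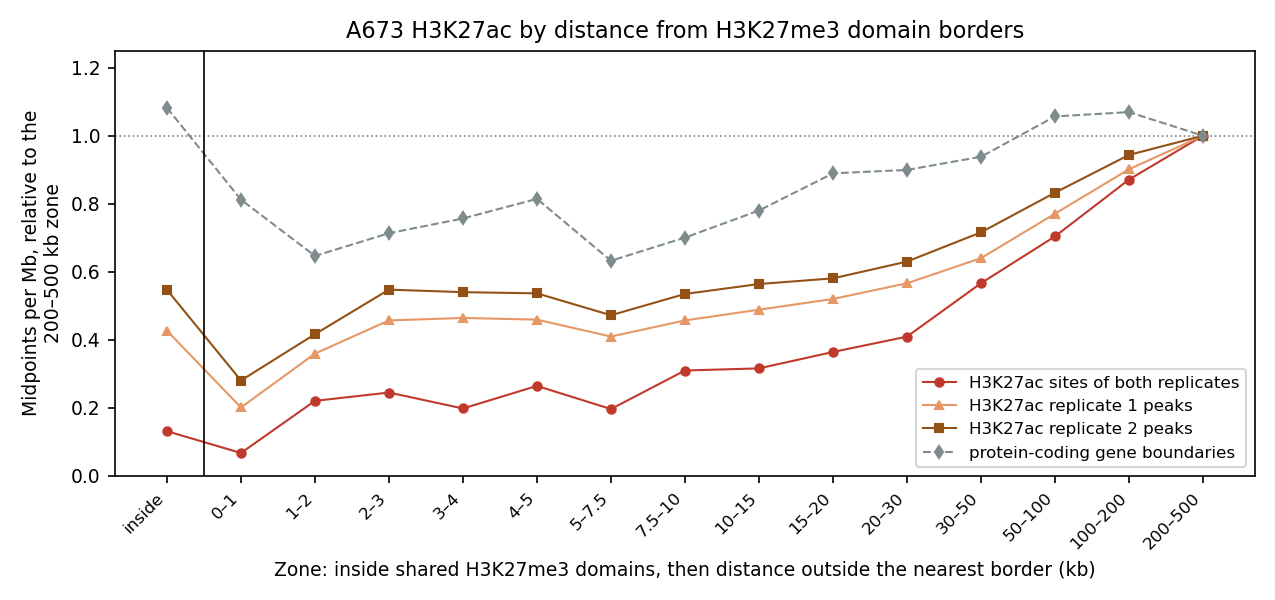
Midpoints per Mb inside shared H3K27me3 domains and in zones of distance outside the nearest border, divided by the level at 200 to 500 kb. H3K27ac sites of both replicates (red) stand at 0.07 in the first kb, between 0.20 and 0.26 from 1 to 7.5 kb and at 0.31 from 7.5 to 10 kb, with no peak at the border, while gene boundaries (grey) stay between 0.63 and 1.08.

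The 122 sites inside domains were small and weak compared with sites elsewhere. Their median length was 727.5 bp and their median −log10 q 5.91 and 5.41 in replicates 1 and 2, against 828.5 bp, 6.90 and 6.49 for the 246 flank sites and 1113 bp, 9.26 and 8.0 for the 8843 sites away from H3K27me3. In 100 of the 122 the whole site lay inside the domain and 22 crossed a border. For the 114 with their midpoint in the domain, the median distance to the nearest border was 1792 bp. The median distance of evenly spread points was also calculated for each site's own domain, and these values had a median of 2225 bp. Relative to protein-coding genes, 52 lay in the nearest gene, 14 in another gene and 56 between genes. Of the flank sites, 83, 19 and 144 did.

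H3K4me1 was on fewer inside sites than on flank sites or sites away, whereas H3K4me3 shares overlapped between inside and flank sites and were lower there than at sites away. These differences were not tested. H3K4me1 covered 46.7% and 39.3% of inside sites, 60.6% and 55.3% of flank sites and 68.1% and 58.1% of sites away. H3K4me3 covered 13.9% and 9.84% of inside sites, 11% and 12.6% of flank sites and 18.6% and 18.5% of sites away. No A673 list of either mark covered 54 of the 122 inside sites (44.3%), against 27.6% of flank sites and 19.8% of sites away. Median coverage by the 14 lists of other groups was 2 for inside and 2 for flank sites.

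The inside sites matched CHLA10 H3K27me3 more often than CHLA10 H3K27ac. CHLA10 H3K27me3 lay on 39.3% (30.6 to 48.6) and 41.0% (32.2 to 50.3) of inside sites, 13.0% and 12.6% of flank sites and 0.961% and 0.995% of sites away. CHLA10 H3K27ac lay on 9.02% and 3.28% of inside sites, 19.5% and 16.7% of flank sites and 44.6% and 37.0% of sites away. Of 122 inside sites, 37 had CHLA10 H3K27me3 in both replicates and 3 had CHLA10 H3K27ac in both. Shared A673 domains that met a shared CHLA10 domain made up 51.8% of the domain length and held 0.691 sites per Mb, against 0.794 per Mb in those that did not. HOXD13, the homeobox factor profiled in 1 A673 library without the shNS label, had a peak on 3 inside sites, 16 flank sites (6.50%) and 797 sites away (9.01%).

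**Figure D4:**
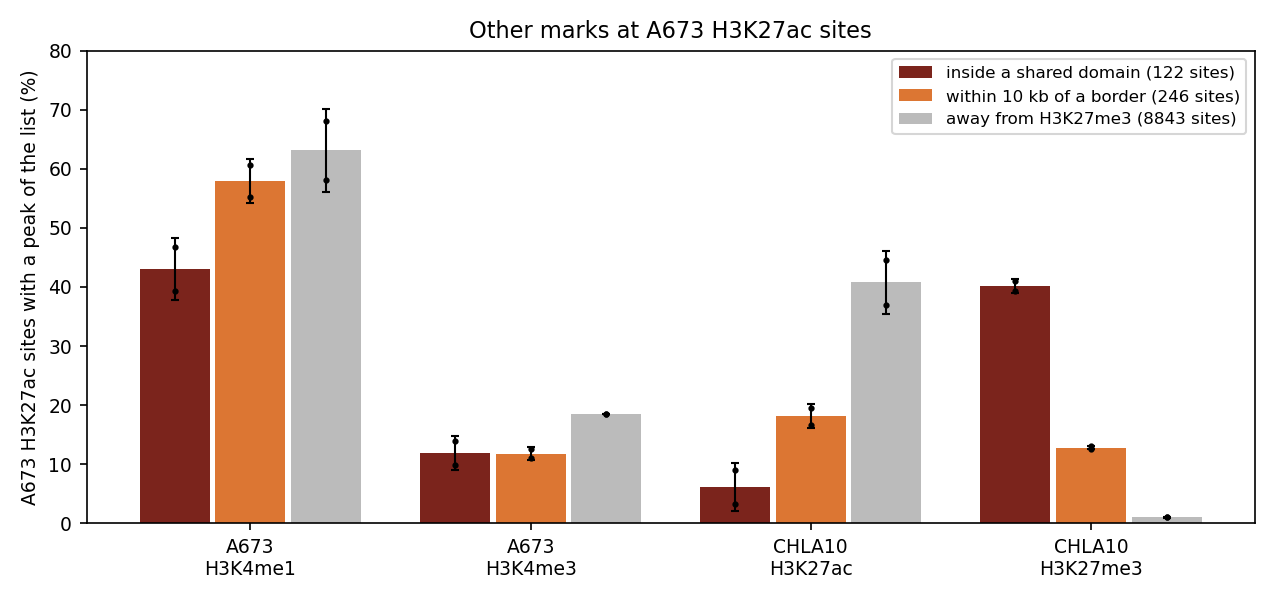
Percentage of A673 H3K27ac sites inside shared domains (dark red), within 10 kb outside a border (orange) and away from H3K27me3 (grey) that overlapped a peak of each list. Bars are means of the 2 replicate lists, dots the single lists and error bars 1 SD. CHLA10 H3K27me3 covers 40.2% of inside sites and 0.978% of sites away, and CHLA10 H3K27ac 6.15% and 40.8%.

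The highest-scoring inside site with a protein-coding gene within 100 kb lay at chr22:50643630-50644463 (hg38), 15.9 kb from ARSA, the gene of the lysosomal enzyme arylsulfatase A. Its H3K27ac −log10 q was 67.7 and 58.5, with fold enrichments of 18.8 and 23.1, and it sat in a domain of 3.12 kb whose H3K27me3 −log10 q was 105.7 and 143.0. Peaks of 9 of the 18 lists overlapped this site, including both A673 H3K4me1 lists and both CHLA10 H3K27me3 lists. Few inside sites sat in H3K27me3 peaks of that height, since 4 of the 122 had a domain with −log10 q above 50 in replicate 1. The second, at chr20:1258181-1260610, was 3.52 kb from RAD21L1, a cohesin subunit of meiosis (28.5 and 18.2), and the third, at chr11:36248546-36249778, was 17.0 kb from LDLRAD3, a membrane receptor gene (18.6 and 19.6).

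SLC17A7 had a site 0.740 kb from the gene (−log10 q 13.6 and 15.1) that crossed the border of a 4.64 kb domain and carried H3K4me3 in both A673 and both CHLA10 lists. SLC1A2, the glial glutamate transporter, had one within the gene (21.3 and 11.3). BARHL1, a homeobox factor of the developing brain, had a site within the gene, at chr9:132584901-132586072 (12.4 and 12.6), wholly inside a 15.4 kb domain and with H3K27me3 in both CHLA10 lists too.

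The remaining sites named by score were nearest to GFY, PLPP2, a phospholipid phosphatase gene, PAMR1, APIP, a gene of methionine salvage, LOC112268347 and C1QTNF4. Their −log10 q was 12.4 to 22.7 in replicate 1 and 10.0 to 27.5 in replicate 2. The APIP and PAMR1 sites lay between genes, 72.8 and 38.4 kb from the gene named. PLPP2, SLC1A2, SLC17A7, APIP and C1QTNF4 had sites that crossed a border. All of these but the SLC1A2 site had their midpoint outside the domain. The PLPP2, SLC17A7 and APIP sites overlapped an H3K27me3 peak of replicate 2 alone. The other named inside sites were wholly inside.

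In the flank, the highest score was at chr17:115730-118423, 20.5 kb from SCGB1C2, a secretoglobin gene, with −log10 q of 89.8 and 60.4 and fold enrichments of 28.8 and 25.3. The domain began 3.05 kb away, and that domain itself held an H3K27ac site of 6.52 kb (24.6 and 9.70) that lay wholly within it. That inside site spanned nearly the whole 6.84 kb domain, and H3K4me1 peaks of both A673 replicates covered most of the same stretch. The pair of sites shows both classes side by side at 1 locus, with the inside site and its domain nearly the same interval. Of the 12 flank sites, 2 were nearest to developmental factors. TBX1 is a T-box factor of the pharyngeal arches (24.1 and 24.3, 4.54 kb from the border). GATA4 is a zinc finger factor of heart and gut (17.4 and 22.7, 0.052 kb from the border).

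The other flank sites named by score were nearest to PAMR1, ABTB2, NDUFS3, a subunit of respiratory complex I, and C19orf25. The rest were nearest to TLE2, a Groucho corepressor gene, BCAN, the gene of the brain proteoglycan brevican, KIAA1549L and OR2AG2, an olfactory receptor gene. The ABTB2, OR2AG2 and PAMR1 sites lay between genes, 38.5, 29.5 and 19.2 kb from the gene named. These other flank sites had −log10 q of 18.7 to 36.0 in replicate 1 and 13.3 to 29.1 in replicate 2. They lay 1.76 to 7.76 kb from a border. C19orf25 and BCAN sites carried H3K4me3 in both A673 lists. Inside sites had 105 nearest genes and flank sites 199, and 12 genes were in both sets, 11.4% of the inside set and 6.03% of the flank set. They were BSPH1, C19orf25, C1QTNF4, CALY, GCGR, IL20RA, IQSEC3, IRF8, PAMR1, SCGB1C2, TGFA and TLE2.

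**Figure D5:**
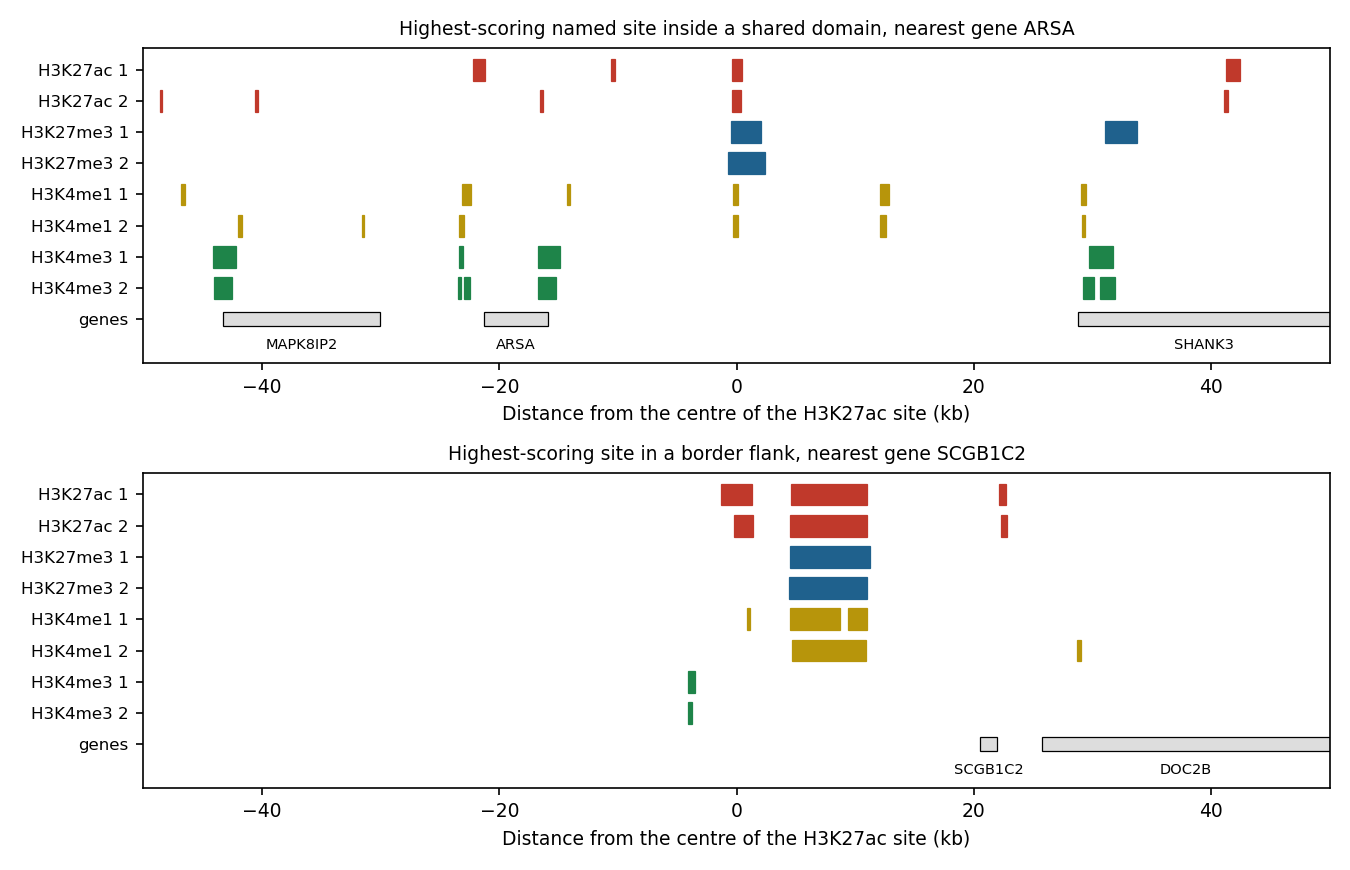
A673 peaks of each replicate list and protein-coding genes within 50 kb of the site near ARSA (upper panel, inside a domain) and the site near SCGB1C2 (lower panel, border flank), by distance in kb from the site's centre. The ARSA site lies within the 3.12 kb H3K27me3 domain. The SCGB1C2 site lies 3.05 kb from a domain that H3K27ac and H3K4me1 cover over most of its length.

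Stronger domains held more H3K27ac sites per Mb. From the weakest to the strongest of 4 equal sets of shared domains by H3K27me3 −log10 q, sites per Mb numbered 0.301, 0.468, 0.567 and 1.17, and peaks per Mb of replicate 1 numbered 5.99, 7.29, 7.97 and 11.5. Gene boundaries per Mb followed, at 10.4, 10.8, 13.7 and 25.9, so sites per 100 gene boundaries were 2.91, 4.34, 4.14 and 4.54. Domains with H3K4me3 in both replicates (1529 domains) held 2.22 sites per Mb, against 0.540 in those without (17217 domains). Of all 18746 domains, 18627 held no site, 115 held 1 and 4 held 2. Counted by domain, sites number 123 and not 122, because a site that met more than 1 domain was counted in each.

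The 4 domains with 2 sites lay on chromosomes 2, 19, 3 and 11. The chromosome 2 domain, chr2:70537440-70559144, covered 21.7 kb at TGFA, the gene of transforming growth factor alpha, with H3K27me3 −log10 q of 8.30 and 7.33. Its sites were weak, at −log10 q of 4.97 and 5.41 for the first and 4.97 and 2.55 for the second. The others were 5.79 kb at PLPP2, 29.0 kb with PPP1R2 nearest, a gene of protein phosphatase regulation, and 33.4 kb within CCDC73 with EIF3M nearest, a translation initiation factor gene. Both PLPP2 sites crossed a border, had midpoints outside the domain and met H3K27me3 of replicate 2 alone. Among domains with 1 site, the strongest were those at ART1, an ADP-ribosyltransferase gene (H3K27me3 −log10 q 253.1 and 89.7), and near ARSA. The H3K27ac peak at ART1 was weak in replicate 2 (8.19 and 2.07).

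At genes, the marks seldom met. Of 19126 protein-coding genes, 6.91% (1322) had an H3K27ac site within 1 kb of a gene end, 13.5% (2575) a shared domain and 0.167% (32) both. A site was at an end of 1.24% of genes with a shared domain (0.852 to 1.75), 3.65% of the 1205 genes without H3K27me3 whose nearest domain was within 10 kb (2.67 to 4.87) and 8.40% of the 14739 genes further away (7.96 to 8.86). Restricting to gene ends with H3K4me3 kept the order, at 2.04% of 1223 genes with a shared domain, 4.88% of 656 within 10 kb and 10.4% of 10322 further away. With single lists, 6.44% to 8.26% of genes with H3K27me3 had H3K27ac, against 19.2% to 21.1% of other genes. The value of 32 depended on the window, with 160 genes at 5 kb on each side, 488 over gene bodies and 6 at gene starts alone, a setting added after the data were seen. It also rests on requiring both H3K27ac lists, since replicates 1 and 2 alone gave 173 and 211 genes.

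Of the 32 genes, 25 carried the marks at opposite ends and 7 at the same end. Of their sites, 6 overlapped a domain, 11 lay in a flank and 15 were away from H3K27me3. LRRC75A scored highest, with a site at one end (−log10 q 30.5 and 19.9) and a 5.72 kb domain beyond the other (2.35 and 2.48). BCAN followed, with H3K27ac at its 3′ end (20.0 and 19.7) and a 23.5 kb domain over its start (5.73 and 5.88). WT1, the Wilms tumour zinc finger factor, had a site at its 3′ end (13.4 and 22.1) and a 19.1 kb domain at its start (10.96 and 11.5). DLL4, a Notch ligand, showed the same arrangement (12.4 and 13.9 for the site, 4.58 and 4.63 for the domain), as did GBX1, a homeobox factor (10.1 and 10.0, and 6.43 and 8.14).

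The reverse arrangement, H3K27ac at the start and H3K27me3 at the 3′ end, was found at C19orf25 (20.0 and 17.9 for the site), DPP4, a cell surface peptidase (13.6 and 8.79), and SRGAP3 (12.8 and 8.44). A2M, a protease inhibitor (11.2 and 8.79), and DRC5 (9.001 and 10.0) had the marks at opposite ends, and so did LDLRAD3 (12.7 and 8.59). Of the 12 genes named by score, SLC17A7 alone had both at the same end, its start. Below the named 12, PLPP2, SRP68, VSNL1, ZBTB45, CPAMD8 and DLX5 also had both marks at one end, and they were picked out after their values were seen.

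Lists of developmental factors held many genes with H3K27me3, and 3 genes with both marks. These lists were chosen with earlier results known, and their counts are descriptions beside the 13.5%, 6.91% and 0.167% over all genes. Of 39 HOX genes, the body-plan homeobox factors, 15 (38.5%) had a shared domain at an end, 4 (10.3%) an H3K27ac site (HOXD8, HOXC10, HOXB3 and HOXB5) and 0 both. The domains were at all 11 HOXA genes and at HOXB8, HOXB9, HOXD1 and HOXD13, and no HOX gene was nearest to an inside or flank site. Of 71 other homeobox and PAX factors, 37 (52.1%) had a domain, 3 (4.23%) a site and 2 both (DLX5 and GBX1, 2.82% of the list and 5.41% of its genes with a domain). Of 57 GATA, FOX, TBX, SOX and bHLH factors, 39 (68.4%) had a domain, 3 (5.26%) a site (WT1, ZIC2 and SOX9) and 1 both (WT1, 1.75% of the list and 2.56% of its genes with a domain). Over all genes with a domain, the share with both was 1.24%.

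Within those groups, inside sites were nearest to BARHL1, DLX5, EVX1, PAX2 and TBX5, and flank sites to GBX1, LHX2, GATA4, GATA6, TBX1, TBXT, TCF21 and WT1. EVX1, beside the HOXA cluster, had an inside site 15.6 kb away (7.93 and 5.41). PAX2, a factor of kidney and eye, had one 4.05 kb away in a domain of 26.4 kb (5.91 and 8.79). DLX5, a factor of bone and forebrain, had its site 1.12 kb away (3.33 and 8.44). TBXT, the notochord factor brachyury, had a flank site 4.90 kb away and 1.81 kb from the border (4.10 and 6.71). TBX1 had 2 flank sites, the weaker 1.21 kb from the border (11.2 and 13.9).

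Signalling lists held no gene with both marks. Over all genes the share was 0.167%, or 1.24% of genes with a domain, so lists of this size may well hold none. Of 47 WNT pathway genes, 21 had a domain and 0 a site at an end, though inside sites were nearest to SFRP2, a secreted WNT antagonist (within the gene, 1.45 kb from its boundary, 6.90 and 3.43), and WNT7B, a ligand (within the gene, 3.66 kb from its boundary, 3.24 and 3.43). Of 37 TGF-beta and BMP genes, 11 had a domain, among them the ligands BMP2, BMP4, BMP6 and BMP7 and the antagonists CHRD, FST and GREM1. Another 4 had a site, namely the targets ID1, ID2 and ID3 and the ligand BMP5. BMP7 had a weak flank site 1.41 kb from the border (3.24 and 3.43).

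Among lists tied to the tumour and to cell state, 1 gene had both marks. Of 38 mesenchymal genes, 8 had a domain, 1 a site (PDGFRB) and 0 both, with inside sites nearest to PRRX1, a mesenchymal homeobox factor (within the gene, 31.2 kb from its boundary, 11.2 and 6.49), and ZEB1, a driver of epithelial to mesenchymal transition (within the gene, 85.8 kb from its boundary, 3.24 and 3.43). Of 33 genes activated by EWS-FLI1, the fusion oncoprotein of this tumour, 2 had a domain (HOXD13 and SOX2) and 2 a site (ID2 and NPY5R). Of 32 genes repressed by it, 4 had a domain (BACH2, IGFBP3, CD44 and THBS1) and 2 a site (S100A6 and ZYX). Of 27 neural genes, 10 had a domain, 2 a site (NES and TUBB3) and 1 both. That gene, NES, encodes the intermediate filament nestin and had H3K27ac at its 3′ end (5.36 and 9.51) and H3K27me3 at its start.

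In the 7 other lists no gene had both marks, which the low shares over all genes also allow. Domains and sites numbered 1 and 3 of 32 Polycomb and demethylase genes, 1 and 5 of 30 acetylation and reader genes, 9 and 1 of 33 imprinted genes and 0 and 4 of 29 housekeeping genes. They numbered 8 and 1 of 24 epithelial genes, 6 and 1 of 27 endothelial and haematopoietic genes and 10 and 1 of 34 genes silent in most tissues. Flank sites were nearest to EHF, an epithelial factor with 2 such sites (21.3 and 10.0, and 10.7 and 29.3), and to VWF, the endothelial von Willebrand factor, with a weak one (2.47 and 4.39).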

How the data were processed

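Per the submitters' processing notes, Bowtie2, MACS2, SEACR 1.2, bedtools and hg38 were used, without the role of each. The deposited lists are 1 per library. Their peak names place H3K27ac calls against IgG as narrow peaks, and H3K27me3 calls without control as broad peaks of at least 2000 bp. Peak numbers run past the peaks kept (26.7% and 29.0% of H3K27ac), and the selection rule is not given in the sources used here. Each peak has the authors' deposited score (10 times −log10 q, rounded down, in nearly all peaks), fold enrichment as a ratio, −log10 p and −log10 q. The last column, of another kind (peak offset), was not used.

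Overlaps were computed with Python 3.11.15 and numpy 2.4.6 on chromosomes 1 to 22, at 1 bp. Uniform placement was calculated, not simulated, over 100 kb bins that hold a peak of any list, keeping each peak's chromosome and its length rounded up to 50 bp. The interval code was tested on simulated data. Intervals are exact Clopper-Pearson at 95%. Comparisons between marks or lines used two-sided exact permutation over libraries. A site's score is the lower of its percentile ranks by −log10 q in both lists. Named were the 12 inside and 12 flank sites and the 12 genes with both marks that scored highest (1 site per gene, nearest gene boundary within 100 kb), the 6 domains with most sites, and members of 16 gene lists with such sites. A flank site so chosen is not reported here. Genes are RefSeq GRCh38.p14. Ends were used because a start and strand were available for 15101 of 19126 genes, none on chromosome 8. Peak sequences were not analysed here, and the libraries' read depth is unknown. The members and lists were chosen with earlier results of these data known. Alternatives were list strength, domain definition, flank width, placement space, gene window and leaving out each list.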

Additional observations from a re-analysis of the deposited data

How the results depend on the processing

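The H3K27ac share stayed below uniform placement under all 13 alternatives for domains (ratios 0.300 to 0.705) and all 12 for flanks (0.391 to 0.639). With the upper 50% of each H3K27ac list, 2.04% of peaks were inside and 3.05% in the flank, with ratios of 0.300 and 0.391, 52 inside sites, 121 flank sites and 21 genes with both marks. With the upper 50% of each H3K27me3 list, the shares were 2.86% and 2.99% and the flank ratio 0.634. Bases covered by both H3K27me3 lists gave 3.17% and 4.22%. Domains of at least 10 kb gave 2.10% and 1.21%, 49 inside sites, 59 flank sites and 10 genes. A flank of 5 kb held 2.59% of peaks and 126 sites, and one of 20 kb 8.31%, a ratio of 0.639 and 490 sites. Genes with both marks numbered 488 over gene bodies, 160 at 5 kb and 6 at gene starts. Leaving out each list in turn gave inside shares of 3.70% to 4.80%, inside ratios of 0.546 to 0.679, flank shares of 4.40% to 7.26% and flank ratios of 0.546 to 0.615. The counts then ranged from 101 to 2092 inside sites, 311 to 2286 flank sites and 27 to 211 genes, the high ends being single H3K27ac lists, whose peaks all count as sites. The replicate numbers mark no stated batch. With the replicate number as a block, added after the data were seen, the ratio differences inside domains were 0.60 to CHLA10, -0.78 to H3K4me3 and -0.07 to H3K4me1, and in flanks 0.43, -0.05 and -0.14, with exact permutation p of 0.5, the smallest 2 pairs allow, or 1 for H3K4me1 inside. Lists of the same replicate number gave an inside share of 4.32% (ratio 0.616) and lists of different number 4.18% (0.613). Read depth is not in the lists, so weak peaks and the low repeat of A673 H3K27ac limit what single-list shares can show.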

Other observations

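The 3 strongest H3K27ac sites inside shared domains had no protein-coding gene within 100 kb and lay on chromosome 21, at chr21:8221906-8244297, chr21:8450845-8472136 and chr21:8404870-8427333. They measured 21.3 to 22.5 kb, with −log10 q of 265.9 to 769.4 in replicate 1 and 230.5 to 503.2 in replicate 2, and each crossed a domain border. RefSeq places 1 pseudogene of the cell cycle gene CDC27 in each (CDC27P9, CDC27P11 and CDC27P10). Peaks of 9, 8 and 10 of the 18 lists met them. How reads from near-identical copies were assigned to such loci is not known, and its part in these peaks was not tested. All 3 are among the 122 inside sites, and their bases enter the 1.201% of site length in shared domains.

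Inside sites were more often near chromosome ends. Of 122 inside sites, 19 (15.6%) lay within 2 Mb of the first or last peak of their chromosome, against 7.72% of flank sites, 5.35% of sites away from H3K27me3 and 3.45% of all shared domains. Chromosome 19 held 7.82 inside sites per Mb of shared domain (15 sites in 1.92 Mb), against 0.988 on chromosome 1. It was also denser in H3K27ac sites of any class, with 536 in 54.3 Mb, against 1034 in 228.1 Mb on chromosome 1. The share of sites that were inside was 2.80% on chromosome 19, 1.64% on chromosome 1 and 3.37% on chromosome 21. Of the inside sites named by score, those nearest to ARSA, RAD21L1, PLPP2 and LOC112268347 lay this close to a chromosome end. So did the named flank sites nearest to SCGB1C2 and C19orf25. No test was made of the pattern at chromosome ends or of that on chromosome 19.

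From 32 to 37 Mb on chromosome 11, shared domains held 7.17 inside sites per Mb, against 0.741 over all chromosomes. The 8 inside sites there were nearest to EIF3M, LMO2, APIP, SLC1A2, PAMR1 and LDLRAD3, and 14 of the 77 H3K27ac sites of the segment lay in a flank. Over all chromosomes, 1.32% of sites were inside and 2.66% in a flank. The segment was dense in H3K27ac sites of any class, with 77 from 32 to 37 Mb, against 9238 in the whole 2636 Mb. The inside sites named by score at APIP, SLC1A2, PAMR1 and LDLRAD3 came from this segment, as did the named flank sites nearest to PAMR1, ABTB2 and KIAA1549L. The segment was picked out after its values were seen.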
